A study of Mus musculus with 33 samples.

Results

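Transcription factors linked to the basal lineage of the mammary gland, 4 of which did not follow basal genes from gland to gland, were followed through the stages of mammary tumors in RNAseq libraries of sorted GFP+ cells. They are 9 genes, namely Trp63, Tbx2, Tbx3, Snai2, Id4, Sox9, Sox10, Bcl11a and Bcl11b, taken by symbol from the deposited count table of 55487 genes. All 9 passed the filter of at least 10 reads summed over the 33 libraries, as did 36527 genes in all.

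Each library came from 1 mouse. WT tumors (Pthrp wt/wt, with PyMT-MMTV, Cre+ and mTmG) were taken from 3 mice per age at week 6, week 8 and week 10, and from a single mouse at week 12. KO tumors (Pthrp flox/flox, with the same transgenes) were taken from 3 mice per age at week 8, week 10 and week 12. Tumor-free glands, without PyMT, were taken from 2 WT mice per age at week 6, week 8, week 10 and week 12, and from 2 KO mice per age at the 3 later ages. The PyMT, Cre and floxed lines were on the FVB background, and all mice carried MMTV-Cre and the ROSA mTmG reporter, in which Cre turns membrane Tomato into membrane GFP. The MMTV promoter drives both PyMT, a viral oncogene, and Cre, so GFP marks cells of the mammary epithelium in which Cre acted, or their descendants. Digested tissue was cultured briefly before GFP+ cells were sorted, and levels refer to these cultured cells. The stages hyperplasia, adenoma and carcinoma correspond to weeks 6, 8 and 10 in WT and to weeks 8, 10 and 12 in KO tumors, so that stage and age move together.

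As background, the mammary duct has an inner luminal layer and an outer basal, or myoepithelial, layer of contractile cells, which also holds cells with stem cell activity. The p63 protein, encoded by Trp63, is the best-known regulator of basal identity in stratified and glandular epithelia and activates basal keratin and adhesion genes. Tbx2 and Tbx3 are T-box repressors, Snai2 (Slug) is a zinc-finger repressor that binds E-boxes, Id4 is a dominant-negative partner of basic helix-loop-helix factors, Sox9 and Sox10 are related SOX factors and Bcl11a and Bcl11b are paired zinc-finger paralogs. Tumors of the MMTV-PyMT model are mostly luminal, and loss of the basal layer is a known mark of the step to invasive carcinoma.

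Libraries held between 28419983 and 130981596 reads on genes (median 46351179). Levels are given as CPM, the reads of a gene relative to a TMM-scaled library size, a scaling by edgeR that makes libraries comparable. The share of reads on rRNA genes reached at most 0.447% in WT libraries but was above that in 10 of the 15 KO libraries, with a highest value of 18.8%. Pthlh, the gene of PTHrP, had between 1.35 and 2.29 CPM in KO tumors (median 1.64, n = 9) and between 1.46 and 6.67 CPM in WT tumors (median 2.65, n = 10). In KO glands it had between 2.79 and 8.52 CPM, against 2.93 to 7.73 CPM in WT glands. The loxP sites lie at the fourth exon, and reads counted over the whole gene can come from its other exons, so these values do not check the KO label.

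Averaged over the 3 ages, 6 of the 9 regulators fell in tumors relative to glands and 2 rose, in WT and in KO mice alike. Tbx3, Tbx2, Id4, Snai2, Bcl11b and Trp63 were lower, Sox10 and Bcl11a were higher, and Sox9 passed the test in neither genotype. The fall of Trp63 in KO mice rested on 1 gland, with a log2 fold change of -1.03 that became -0.53 without it. The WT glands of week 12 and the WT tumor of week 12 are not part of these averages, though the glands enter the comparison of KO and WT glands. A gene was called when its fold change was over 1.5 and its adjusted p under 0.1 in edgeR's quasi-likelihood test with Benjamini-Hochberg adjustment over all genes tested. Of all 36527 genes, 9.53% were called lower and 6.21% higher in WT tumors, and 5.44% lower and 5.16% higher in KO tumors, which makes 15.7% and 10.6% in either direction against 8 of 9 genes here in each genotype. The median log2 fold change of the 9 genes was -1.75 in WT and -1.56 in KO mice, beside 0.03 and 0.09 over all genes tested. In bulk RNA of sorted cells, fewer cells of a type and less RNA per cell cannot be told apart. All WT tumors were below all WT glands for Tbx2, Tbx3 and Snai2, beside 2.25% of all genes with that pattern and 1.35% with tumors above glands. All KO tumors were below all KO glands for Tbx3, Snai2 and Id4 (1.44% of all genes) and above them for Bcl11a (1.99%).

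**Figure D1:**
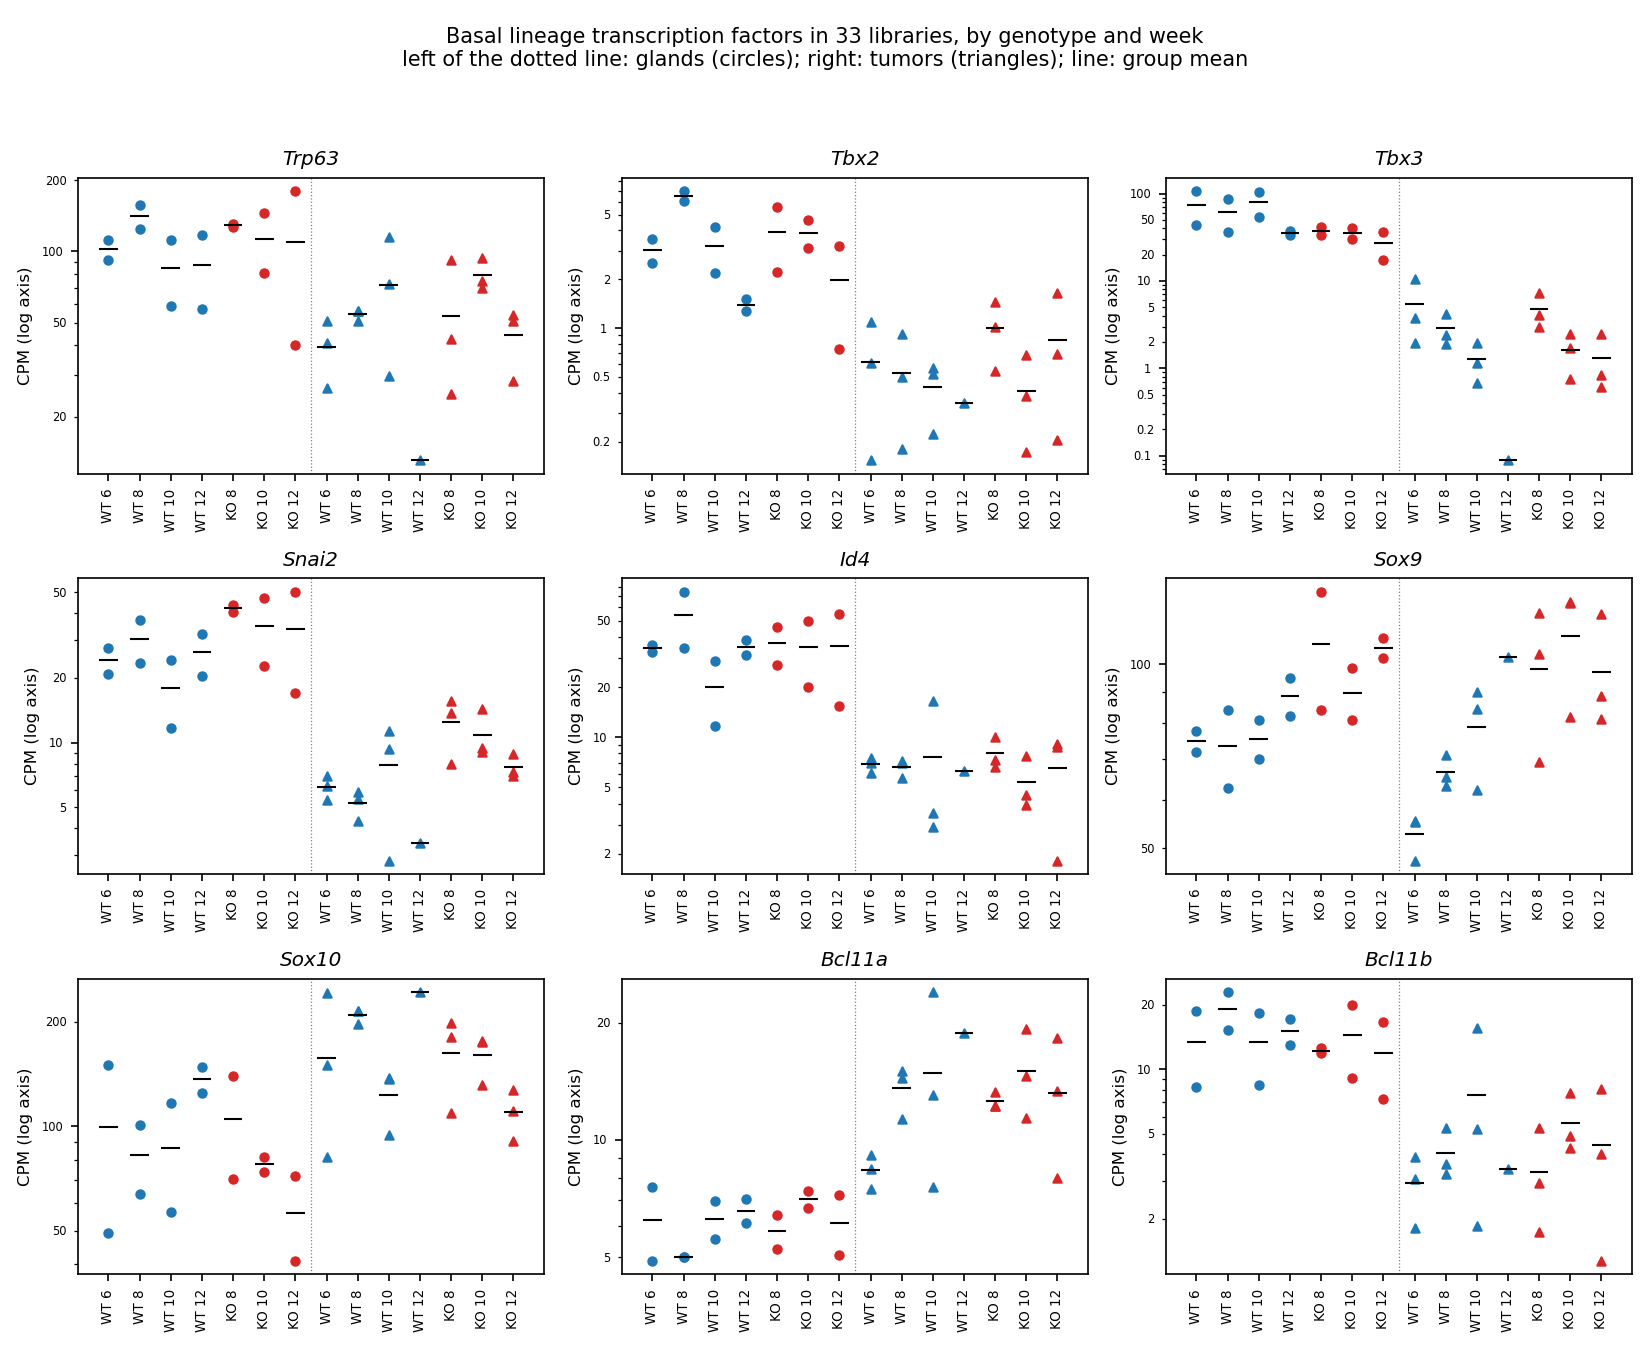
CPM (log axis) of each of the 9 genes in the 33 libraries, with 1 point per mouse, circles for glands, triangles for tumors, blue for WT, red for KO and a black line for the mean of each genotype and week. Tbx3 lies at 17.4 CPM or more in all 14 glands and at 10.5 CPM or less in all 19 tumors, whereas Sox9 overlaps between them.

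Per length of exon, the order of levels in WT glands was led by Sox10 with a median of 35.6 CPM per kb, followed by Sox9 (19.2), Trp63 (13.4), Snai2 (11.8), Id4 (8.64), Tbx3 (7.34), Bcl11b (2.00), Tbx2 (0.837) and Bcl11a (0.444). Among neighbours in that order the ranges over 8 mice overlapped, except that Tbx3 (5.00 to 16.02 CPM per kb) lay above Bcl11b (1.02 to 2.83 CPM per kb). In WT tumors Sox10 (56.8 CPM per kb), Sox9 (15.5), Trp63 (6.06), Snai2 (2.82) and Id4 (1.72) kept their places by median. The end of the order changed, with Bcl11a (0.924 CPM per kb) ahead of Bcl11b (0.432), Tbx3 (0.296) and Tbx2 (0.140). Tbx3 thus went from above to below both Bcl11 genes by median. Reads per library ranged from 6 for Tbx2 to 24758 for Sox10, so values of Tbx2 in tumors carry the largest counting error.

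Not all 9 genes followed the summed level of basal genes from gland to gland. Across the 14 glands, the Pearson correlation of log2 levels with the summed level of 12 known p63 target genes was 0.922 for Id4, 0.876 for Trp63, 0.797 for Snai2, 0.768 for Bcl11b and 0.670 for Tbx2. It was 0.205 for Sox10, 0.0513 for Bcl11a, -0.109 for Tbx3 and -0.236 for Sox9. These are descriptions over libraries that share genotype and age, and carry no test. The 5 genes named first also followed 10 myoepithelial contractile genes (r from 0.666 to 0.917), whereas r was 0.0034 for Tbx3. Background knowledge places Tbx3 in hormone-sensing luminal cells as well, Sox9, Sox10 and Bcl11a in luminal progenitors as well, which are the 4 genes with r between -0.236 and 0.205.

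Trp63 lies on chromosome 16 (ENSMUSG00000022510, GRCm38 chr16:25683763-25892102, plus strand). Its level in the WT tumors of week 6 was 41.0, 50.9 and 26.4 CPM, at week 8 it was 55.9, 56.2 and 50.8 CPM, and at week 10 it was 115, 72.5 and 29.7 CPM. The single WT tumor of week 12 had 13.1 CPM, the lowest of all libraries. In KO tumors Trp63 was at 92.2, 42.5 and 24.9 CPM at week 8, at 74.8, 70.0 and 93.4 CPM at week 10 and at 28.3, 53.8 and 50.7 CPM at week 12. WT glands held 57.2 to 157 CPM (median 112, n = 8) and KO glands 40.0 to 179.9 CPM (median 129, n = 6), so that tumors and glands overlapped in both genotypes. Averaged over ages Trp63 fell by 0.997 on the log2 scale in WT tumors (SE 0.298, edgeR adjusted p = 0.0189) and fell by 1.03 in KO tumors (SE 0.299, adjusted p = 0.0187). The fall in KO tumors rested on 1 gland: without KO gland replicate 1 of week 12 (179.9 CPM) it was -0.53 (edgeR adjusted p = 0.293). The other KO gland of that week had 40.0 CPM of Trp63, and 18.8% of its reads were on rRNA, the highest share of all libraries. Reads counted per gene do not separate the TA and deltaN isoforms of p63, of which deltaN is the basal form.

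Genes that p63 is known to activate fell as well. Of 12 such genes, all 12 were lower in WT tumors (median log2 fold change -0.87) and 10 in KO tumors (median -1.08), and none was higher. Krt5, the basal keratin, had a log2 fold change of -2.84 in WT and -3.01 in KO tumors, Col17a1, a hemidesmosome collagen, of -2.73 and -2.60, and Cdh3, P-cadherin, of -2.04 and -1.93. Itgb4, an integrin of hemidesmosomes, was not called in KO tumors (-0.40) and is named after its values were seen. All 10 contractile genes of myoepithelial cells fell in both genotypes, led by Actg2 (-4.63 in WT and -3.56 in KO), Myh11 (-3.81 and -3.35) and Cnn1 (-3.58 and -3.10). Their summed level had a median of 646 CPM in WT tumors and 6473 CPM in WT glands. These lists were chosen with earlier results of these samples known and are not independent evidence of the direction.

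Tbx3 showed the deepest loss of the 9 genes in both genotypes. The gene (ENSMUSG00000018604, chr5:119670669-119684724, plus strand) had 3.80, 1.96 and 10.5 CPM in the WT tumors of week 6, then 2.42, 4.23 and 1.91 CPM at week 8, then 1.96, 0.685 and 1.16 CPM at week 10, and 0.0885 CPM, or 9 reads, in the single week 12 tumor. KO tumors had 2.97, 7.27 and 4.03 CPM at week 8, then 2.47, 1.69 and 0.746 CPM at week 10, then 0.846, 0.612 and 2.44 CPM at week 12. WT glands held 33.1 to 106 CPM (median 48.7, n = 8) and KO glands 17.4 to 41.1 CPM (median 34.9, n = 6). Every tumor was below every gland of its genotype, and within each genotype the highest tumor was one of the first stage. Tumors were lower than glands by 4.73 on the log2 scale in WT mice (log2 fold change -4.73, SE 0.378, edgeR adjusted p = 1.92e-09) and by 3.91 in KO mice (log2 fold change -3.91, SE 0.370, adjusted p = 6.62e-08).

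Tbx2 (ENSMUSG00000000093, chr11:85832551-85841948, plus strand), the paralog of Tbx3, was sparse throughout. WT tumors held 0.154 to 1.09 CPM (median 0.508, n = 10) and WT glands 1.28 to 6.95 CPM (median 3.03, n = 8), with no overlap. KO tumors held 0.172 to 1.64 CPM (median 0.679, n = 9) and KO glands 0.739 to 5.58 CPM (median 3.16, n = 6). The KO ranges met through KO gland replicate 2 of week 12, which had 0.739 CPM. The log2 fold change was -2.94 in WT (SE 0.428, edgeR adjusted p = 1.11e-05) and -2.14 in KO tumors (SE 0.424, adjusted p = 0.000704).

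Snai2 (ENSMUSG00000022676, chr16:14705852-14709385, plus strand) has roles in basal cells and in the epithelial-mesenchymal transition (EMT). It was between 2.83 and 11.4 CPM in WT tumors (median 5.69) and between 11.8 and 37.3 CPM in WT glands (median 23.9). In KO tumors it was between 7.03 and 15.6 CPM (median 9.01), below the KO glands at 17.1 to 50.4 CPM (median 42.2). Tumors and glands did not overlap in either genotype. Snai2 had a log2 fold change of -1.90 in WT (SE 0.254, edgeR adjusted p = 3.63e-06) and -1.86 in KO tumors (SE 0.254, adjusted p = 8e-06). Of 5 other transcription factors of EMT, 3 were lower and none higher in WT tumors, and none was lower and 2 were higher in KO tumors. Zeb2 was called in both genotypes, with a log2 fold change of -0.997 in WT and 0.82 in KO tumors. Its difference between the genotypes was 1.81 (SE 0.423) and did not pass the adjustment (edgeR adjusted p = 0.109). The fibroblast genes of a list of 10, which share mesenchymal regulators, were summed to 16.1 to 152 CPM in WT tumors (median 37.6) and 21.6 to 796 CPM in WT glands (median 62.9). In KO mice the sums were 13.1 to 76.4 CPM in tumors (median 51.6) and 19.1 to 152 CPM in glands (median 47.8). The highest sums were those of WT gland replicate 2 of week 8 (796 CPM) and of week 6 (257 CPM), where Tbx3 was at 85.6 and 106 CPM. In WT tumors 6 of the 10 were lower and in KO tumors 2, Fbln1 (-2.96 and -2.12) and Thy1 (-2.92 and -2.35) in both genotypes. Over the 14 glands the Pearson r of log2 levels with that sum was 0.672 for Tbx3, 0.574 for Tbx2, 0.343 for Trp63, 0.290 for Bcl11b, 0.109 for Id4 and -0.0986 for Snai2. Without those 2 glands, a choice made after seeing the data, it was 0.411 for Tbx3 and 0.575 for Tbx2 over 12 glands. The part of fibroblast RNA in the fall of these 6 genes was not tested.

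Id4 (ENSMUSG00000021379, chr13:48261228-48266026, plus strand), a marker of basal stem cells, was between 2.91 and 16.6 CPM in WT tumors (median 6.62) and between 11.6 and 74.5 CPM in WT glands (median 33.3). WT tumor replicate 1 of week 10 had 16.6 CPM and every other WT tumor 7.54 CPM or less, so that the WT ranges met through this tumor alone. In KO tumors Id4 was between 1.82 and 10.1 CPM (median 7.35), below the KO glands at 15.3 to 54.8 CPM (median 36.5). Its log2 fold change was -2.24 in WT (SE 0.361, edgeR adjusted p = 4.32e-05) and -2.43 in KO tumors (SE 0.363, adjusted p = 2.55e-05). Of the other Id genes, Id2 was higher (1.46 in WT and 1.27 in KO), as was Id1 (1.05 and 1.12), while Id3 was lower in WT (-0.93) and not called in KO tumors (-0.48). Id1 and Id3 are named after their values were seen. Among 13 paralogs of the 9 regulators, 3 were lower and 2 higher in WT tumors and 2 were lower and 2 higher in KO tumors. The lower ones included Trp73, the p63 paralog (-2.26 and -1.97), and Sox8, the third member of the group of Sox9 and Sox10 (-1.87 and -2.50).

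Sox9 and Sox10 were not called lower in either genotype. Sox9 (ENSMUSG00000000567, chr11:112782224-112787760, plus strand) was between 47.7 and 103 CPM in WT tumors (median 64.3) and between 62.8 and 94.9 CPM in WT glands (median 79.4). KO tumors held 69.3 to 126 CPM (median 104) and KO glands 81.0 to 131 CPM (median 100.3), so that tumors and glands overlapped in both genotypes. The log2 fold change was -0.19 in WT (SE 0.130, edgeR adjusted p = 0.347) and 0.02 in KO tumors (SE 0.130, adjusted p = 1). Sox10 (ENSMUSG00000033006, chr15:79154908-79165240, minus strand) was between 81.2 and 243 CPM in WT tumors (median 173) and between 49.1 and 150.2 CPM in WT glands (median 109). In KO tumors it was between 90.8 and 198 CPM (median 132) and in KO glands between 40.9 and 139.8 CPM (median 72.8). Tumors and glands overlapped, with the log2 fold change at 0.84 in WT (SE 0.241, edgeR adjusted p = 0.0145) and 0.88 in KO tumors (SE 0.241, adjusted p = 0.0130).

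Sox10 is also the regulator of Schwann cells, whose markers were read beside it. The sum of 8 Schwann cell genes was 63.5 to 105 CPM in WT tumors and 75.2 to 85.0 CPM in WT glands, most of it from Mbp, and 68.1 to 102 CPM in KO tumors against 54.3 to 88.6 CPM in KO glands. Foxd3, a factor of neural crest cells, reached at most 0.179 CPM in any library, and Pmp2, a myelin protein, was at 0 in all but 1 library. Mbp, Foxd3 and Pmp2 are named after their values were seen. Of 7 genes tested, 2 were lower and 2 higher in both genotypes. Cdh19, a cadherin that neural crest cells use, rose by 5.81 in WT and 5.44 in KO tumors on the log2 scale, from a median of 0.0795 CPM in WT glands to 6.24 CPM in WT tumors. S100b rose in the fit as well, and glands held at most 3 reads of it against up to 75 in tumors, while Egr2 was lower (-2.42 and -1.24).

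The paired Bcl11 genes moved in opposite directions. Bcl11a (ENSMUSG00000000861, chr11:24078056-24174123, plus strand), known for luminal progenitors and triple-negative tumors, was between 7.48 and 24.0 CPM in WT tumors (median 12.2) and between 4.89 and 7.58 CPM in WT glands (median 5.85). KO tumors held 7.98 to 19.2 CPM (median 13.3), all above the KO glands at 5.07 to 7.39 CPM (median 6.55). The WT ranges met only at their edges, through a tumor of week 6 at 7.48 CPM and a gland of week 6 at 7.58 CPM. It rose by 1.04 in WT (log2 scale, SE 0.199, edgeR adjusted p = 0.000379) and by 1.10 in KO tumors (SE 0.201, adjusted p = 0.000275).

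Bcl11b (ENSMUSG00000048251, chr12:107910403-108003602, minus strand), a basal factor of the gland and a factor of T cells, was between 1.82 and 15.6 CPM in WT tumors (median 3.51) and between 8.24 and 23.0 CPM in WT glands (median 16.3). In KO tumors it was between 1.27 and 8.05 CPM (median 4.26) and in KO glands between 7.24 and 19.9 CPM (median 12.2), so that single libraries overlapped in both genotypes. Its log2 fold change was -1.75 in WT (SE 0.377, edgeR adjusted p = 0.00125) and -1.56 in KO tumors (SE 0.378, adjusted p = 0.0049). The sum of 10 lymphocyte genes was at most 2.76 CPM in any tumor and at most 6.14 CPM in any WT gland, and reached 28.2 CPM in 1 KO gland of week 10 with 19.9 CPM of Bcl11b, the highest KO value. Of the 10 genes 2 were lower in WT and 1 in KO tumors, with Cd79a, of B cells, in both (-1.49 and -2.07). Without that gland the averaged log2 fold change of Bcl11b in KO mice was -1.33 (edgeR adjusted p = 0.0329).

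The promoters of this pair are shown because the paralogs moved apart. RefSeq sequence (GRCm38.p6) from 250 bases before to 30 bases after the annotated start was at hand for 3 of the 9 genes, Bcl11a, Bcl11b and Id4. These RefSeq starts differ from the Gencode starts of the gene positions given above. The Gencode gene of Bcl11a begins at chr11:24078056, so that its whole window lies inside that gene. The Id4 window ends before the Gencode gene begins (chr13:48261228). The Bcl11a window is chr11:24080445-24080724 (plus strand), the Bcl11b window chr12:108003385-108003664 (minus strand), and capitals mark the T-box core GGTGTGA, the only motif found.
Bcl11a: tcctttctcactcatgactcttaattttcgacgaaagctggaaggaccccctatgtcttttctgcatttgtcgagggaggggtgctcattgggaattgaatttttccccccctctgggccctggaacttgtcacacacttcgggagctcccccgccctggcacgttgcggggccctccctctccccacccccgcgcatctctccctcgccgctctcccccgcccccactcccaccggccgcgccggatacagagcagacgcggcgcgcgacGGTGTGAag
Bcl11b: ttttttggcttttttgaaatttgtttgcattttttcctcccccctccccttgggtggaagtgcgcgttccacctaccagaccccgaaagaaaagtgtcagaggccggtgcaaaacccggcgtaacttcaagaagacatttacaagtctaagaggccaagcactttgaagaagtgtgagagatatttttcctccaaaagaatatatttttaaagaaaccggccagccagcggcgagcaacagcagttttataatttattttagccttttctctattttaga
The Bcl11a window has 62.9% GC and the Bcl11b window 42.1%, beside a median of 52.5% over 32851 windows of the same length. Motifs were searched on both strands. The T-box core (GGTGTGA or TCACACC) was found in 3.74% of all windows and, among the 3 genes, only in Bcl11a, starting at base 22 after the RefSeq start. The E-box that SNAI2 binds (CACCTG or CAGGTG), found in 19.1% of windows, and the SOX core (ACAAAG or CTTTGT), found in 17.9%, had no match in the windows of Bcl11a, Bcl11b or Id4 (chr13:48260866-48261145, plus strand, 74.3% GC). A match of letters is a description and not evidence of binding.

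**Figure D2:**
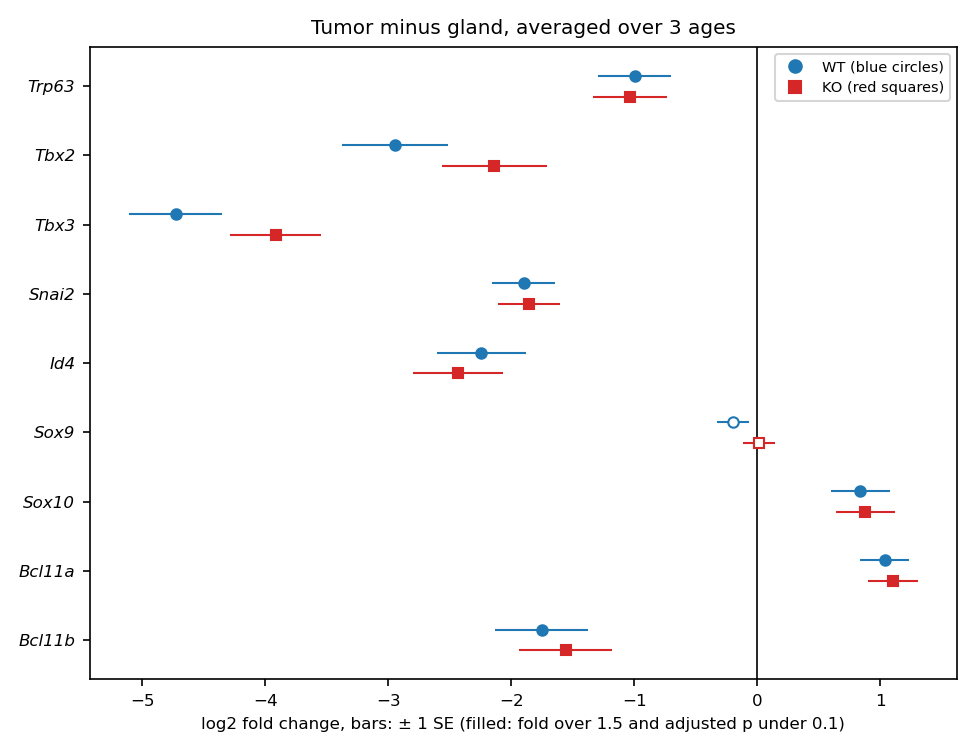
Log2 fold change (x axis, bars ± 1 SE) of tumor minus gland averaged over 3 ages for the 9 genes, with blue circles for WT and red squares for KO, filled where the gene was called. Tbx3 lies farthest left at -4.73 in WT and -3.91 in KO, and Sox10 and Bcl11a lie right of 0 in both.

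The loss was also read at each stage. At hyperplasia 5 of the 9 genes were lower and none higher in WT tumors of week 6 (over all genes 3.53% lower and 2.32% higher, 5.86% together), and 3 were lower and none higher in KO tumors of week 8 (1.38% and 1.11%, 2.49% together). At adenoma 5 were lower and 2 higher in WT (5.84% and 3.35%, 9.19% together) and 4 were lower and 1 higher in KO tumors (3.09% and 2.57%, 5.66% together). At carcinoma 2 were lower and 1 higher in WT (3.67% and 2.46%, 6.13% together) and 3 were lower and 1 higher in KO tumors (2.92% and 3.19%, 6.11% together). Fewer calls at WT week 10 do not by themselves show a smaller loss. The test of the change of the tumor effect between stages called no gene at all, so it cannot decide this. From week 6 to week 10 its WT estimates were positive, toward a smaller loss, for Trp63, Bcl11b, Id4 and Snai2. They were negative, toward a deeper loss, for Tbx3 and Tbx2.

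Tbx3 was the only one of the 9 called at all 6 ages. Its log2 fold change was -3.80, -4.42 and -5.96 in WT mice from hyperplasia to carcinoma, and -2.98, -4.41 and -4.34 in KO mice. The call at KO week 12 was lost with only the compared groups in the fit (-4.39, edgeR adjusted p = 0.145), as were those of Snai2, Id4 and Bcl11a. That fit called 0 genes in all, beside 2233 as reported and 2904 with DESeq2. The Tbx3 call at KO week 8 was lost without gland replicate 1 (-2.83, adjusted p = 0.161). Snai2 was called at 5 ages and lay at -1.21 at WT week 10 (edgeR adjusted p = 0.135). Id4 was also called at 5 ages, with -1.39 at WT week 10 (adjusted p = 0.263), where WT tumor replicate 1 had 16.6 CPM. Without that tumor Id4 at WT week 10 was -2.65 (adjusted p = 0.0126) and Snai2 -1.58 (adjusted p = 0.0770). The same tumor stood apart in fibroblast and luminal structural genes, as given with the changes between stages.

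Tbx2 was called at 4 ages and lay at -1.97 at KO week 8 (adjusted p = 0.219) and -1.25 at KO week 12 (adjusted p = 0.456). Bcl11b was called only at WT weeks 6 (-2.19) and 8 (-2.24), and Trp63 at none, with values from -1.38 to -0.24. Bcl11a was called higher at WT weeks 8 and 10 and KO weeks 10 and 12, and was not called at KO week 8 (1.11, adjusted p = 0.121), where its value was close to those of KO weeks 10 (1.10) and 12 (1.10), or at WT week 6 (0.42, adjusted p = 0.576). Sox10 was called higher at WT week 8 alone (1.34), and Sox9 at none.

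Calls at a single age rest on 3 tumors and 2 glands, and 10 of the 27 held whichever library was left out. Those were Tbx3 at WT weeks 6, 8 and 10 and KO weeks 10 and 12, Snai2 at WT weeks 6 and 8, and Tbx2, Id4 and Bcl11a at WT week 8. At KO week 8 no member was called without gland replicate 1, and 1 without gland replicate 2, tumor replicate 2 or tumor replicate 3. At KO week 10 1 was called without gland replicate 2 and 3 without tumor replicate 2, and at KO week 12 2 without gland replicate 1. At WT week 6 2 were called without gland replicate 2, tumor replicate 1 or tumor replicate 2 and 3 without gland replicate 1, and at WT week 10 1 without gland replicate 1.

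**Figure D3:**
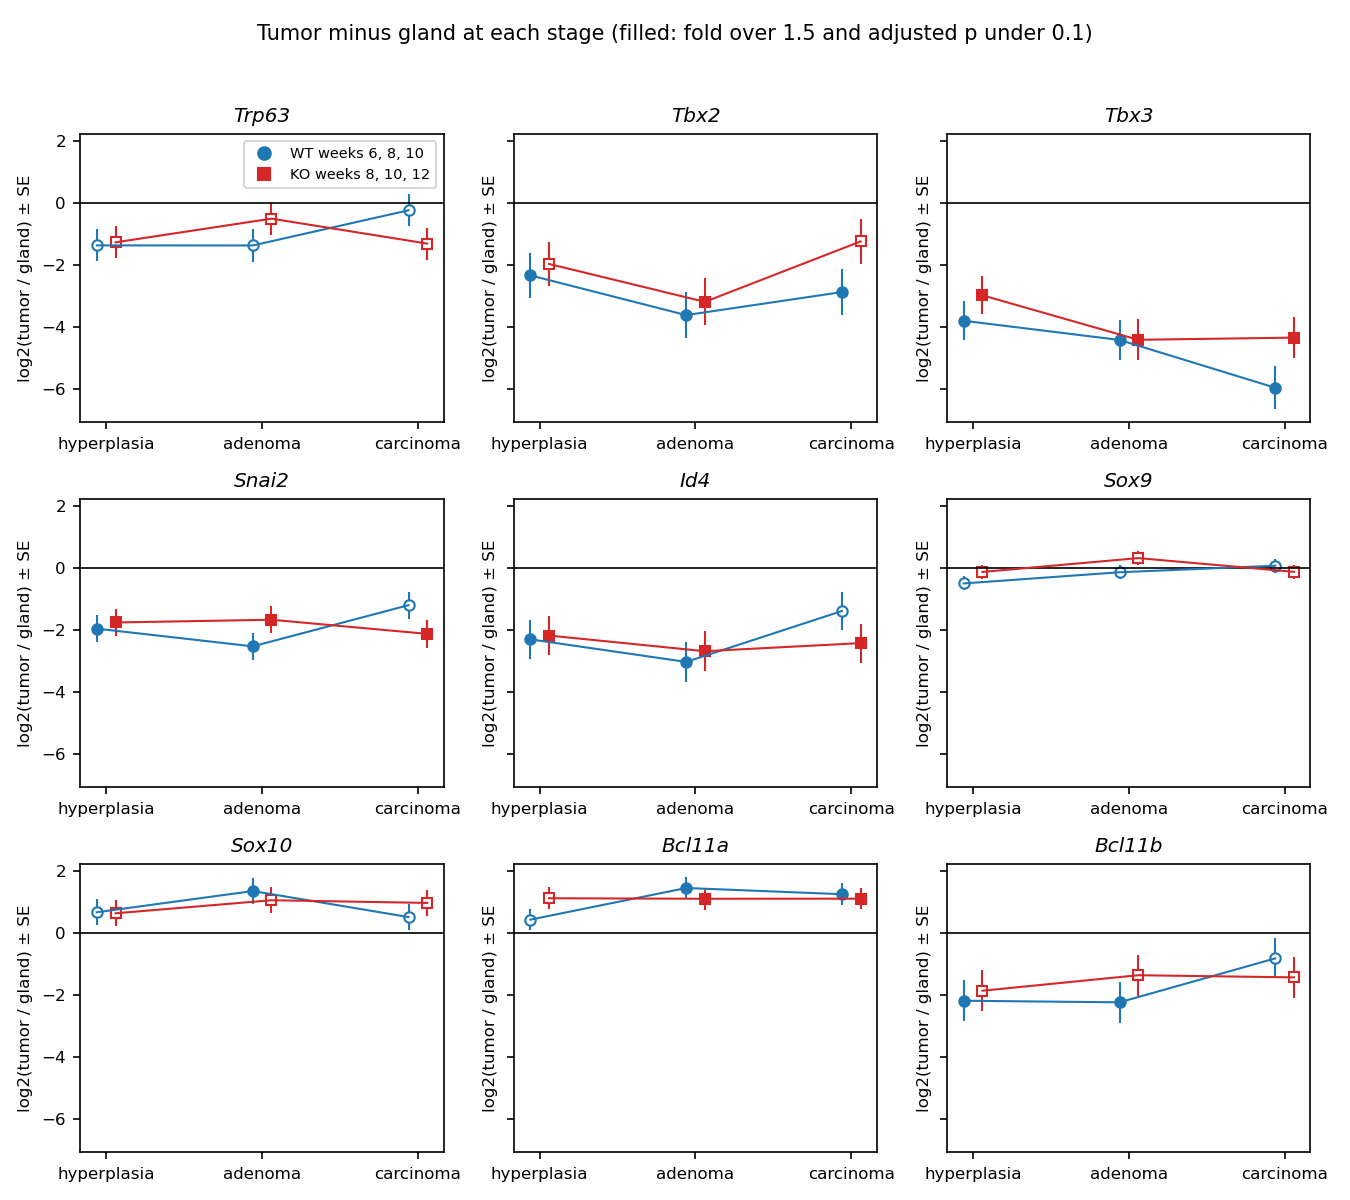
Log2 fold change of tumor minus gland (y axis, bars ± 1 SE) at hyperplasia, adenoma and carcinoma for the 9 genes, in WT mice of weeks 6, 8 and 10 (blue circles) and KO mice of weeks 8, 10 and 12 (red squares), filled where the gene was called. Tbx3 in WT mice runs from -3.80 to -5.96 with every point filled, and Trp63 has no filled point.

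No change with stage passed the test. Between the last and the first stage of tumors, 0 of the 9 genes were called in WT or KO, beside 4 genes (0.011%) and 0 genes in all. Over all genes 3122 in WT and 2878 in KO had an unadjusted p under 0.05, and DESeq2, run as an alternative, called 253 and 125. Tbx3 came closest: its log2 difference was -2.06 in WT (95% interval -3.29 to -0.84, edgeR adjusted p = 0.438) and -1.84 in KO tumors (-3.04 to -0.64, adjusted p = 0.548). Tbx3 in WT tumors was called by DESeq2 (-2.09, adjusted p = 0.0505), and without the filter on low counts it was called in WT (-2.07, edgeR adjusted p = 0.00421) and KO tumors (-1.83, adjusted p = 0.0186). The WT value rested in part on tumor replicate 3 of week 6, with 10.5 CPM, and was -1.18 without it (edgeR adjusted p = 0.819).

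The other regulators gave no such pair of values. Trp63 was at 0.87 in WT (95% interval -0.10 to 1.85) and -0.27 in KO tumors (-1.23 to 0.70), Snai2 at 0.33 (-0.49 to 1.16) and -0.69 (-1.51 to 0.14). In WT tumors alone the intervals of Bcl11b (1.36, 0.11 to 2.61), Bcl11a (0.83, 0.21 to 1.45) and Sox9 (0.58, 0.17 to 1.00) lay above 0, but none passed the adjustment over all genes. Bcl11a was called without WT tumor replicate 3 of week 10 (1.15, edgeR adjusted p = 0.0807) and lay at 0.30 without replicate 1 of that week (adjusted p = 0.874). Without replicate 1 Bcl11b was at 0.27 (adjusted p = 0.987), Trp63 at 0.37 and Sox9 at 0.53. Replicate 1 of that week held the highest WT tumor levels of Trp63, Snai2, Id4, Bcl11a and Bcl11b, and replicate 3 was among the 3 lowest WT tumors for each of them. Replicate 1 also held the highest fibroblast sum of the 19 tumors (152 CPM, the next 76.4 CPM) and the lowest sum of luminal structural genes of the 33 libraries (6477 CPM). The part of those cells in its levels was not tested.

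When the glands of the same age were taken off, the change in the tumor effect from the first to the last stage was called for 0 of the 9 genes, and for 0 genes in all, in both genotypes. At an unadjusted p under 0.05 there were 1555 genes in WT and 1316 in KO, and DESeq2 called 3 and 2. Tbx3 was at -2.16 in WT (95% interval -3.98 to -0.34, edgeR adjusted p = 0.923) and -1.36 in KO mice (-3.17 to 0.44, adjusted p = 1.00). For Trp63 the interval was -0.40 to 2.66 in WT and -1.57 to 1.48 in KO mice. These intervals give the range of changes with stage compatible with 3 tumors and 2 glands per stage, at a spread estimated over all 33 libraries. Those of Tbx2 were wider, with -2.70 to 1.63 in WT and -1.41 to 2.86 in KO mice.

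The WT tumor of 12 weeks has no replicate and entered no test. It had the lowest WT tumor level of Trp63 (13.1 CPM) and of all libraries for Tbx3 (0.0885 CPM), and 3.42 CPM of Snai2. Sox9 (103 CPM) and Sox10 (243 CPM) were at their highest WT tumor level in it, and Bcl11a (18.8 CPM) at its second highest.

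Between genotypes Sox9 was the only one of the 9 genes called, in tumors and not in glands, and that call depended on the setting. Snai2 had a difference in tumors of like size (0.68) that was not called. Sox9 in tumors of the same stage was at 69.3, 121 and 104 CPM in KO and 47.7, 55.4 and 55.1 CPM in WT mice at hyperplasia. At adenoma it was at 81.9, 126 and 126 CPM in KO and 63.2, 71.0 and 65.3 CPM in WT, and at carcinoma at 81.3, 121 and 88.7 CPM in KO and 84.4, 90.1 and 62.2 CPM in WT tumors. KO tumors were above all WT tumors of the stage at the first and second stage and overlapped with them at the last. Snai2 had the same pattern, with 7.98 to 15.6 CPM in KO and 5.40 to 6.96 CPM in WT tumors at hyperplasia. At adenoma Snai2 was at 9.01 to 14.3 and 4.34 to 5.92 CPM. Bcl11a did not overlap at hyperplasia either (12.2 to 13.3 and 7.48 to 9.17 CPM). The share of all genes with such a pattern at a stage was not computed. For Sox9 the log2 difference was 0.64 (SE 0.117, 95% interval 0.40 to 0.89, edgeR adjusted p = 0.00675). That is 1 call among the 9 genes, beside 0.824% of all genes called higher and 0.282% lower (1.11% together). No member had all KO tumors above or below all WT tumors, a pattern of 0.0274% and 0.0219% of all genes.

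The rRNA share moved with the difference of Sox9. KO tumor replicates 1 of week 8, 1 of week 10 and 3 of week 12 had rRNA shares within those of WT libraries, and their Sox9 levels were 69.3, 81.9 and 88.7 CPM. With those 3 KO tumors alone the difference was 0.28 (SE 0.116, edgeR adjusted p = 0.962), and with the log10 rRNA share as a covariate 0.51 (SE 0.0958, adjusted p = 0.0120), below the fold of 1.5. It was below that fold as well without KO tumor replicate 2 of week 8 (0.57, adjusted p = 0.0259) or replicate 2 of week 12 (0.58, adjusted p = 0.0193). Genotype and rRNA share cannot be told apart in the libraries of high share. KO tumors were also 2 weeks older than WT tumors of the same stage, so that genotype and age cannot be told apart in this difference. At the same age the Sox9 levels of KO and WT tumors overlapped, with 69.3 to 121 CPM in KO and 63.2 to 71.0 CPM in WT at week 8, and 81.9 to 126 CPM in KO and 62.2 to 90.1 CPM in WT at week 10. The difference at the same age was not tested.

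Snai2 was at 0.68 (95% interval 0.20 to 1.16, edgeR adjusted p = 0.180) in KO minus WT tumors, and was called by DESeq2 (0.68, adjusted p = 0.0459) and without the filter on low counts (0.68, edgeR adjusted p = 0.0195). The other 7 genes lay between -0.30 and 0.46. Their 95% intervals were -0.47 to 0.65 for Trp63, -0.37 to 1.29 for Tbx2, -0.99 to 0.39 for Tbx3 and -0.78 to 0.57 for Id4. They were -0.60 to 0.27 for Sox10, -0.17 to 0.54 for Bcl11a and -0.75 to 0.67 for Bcl11b. A level 1.5-fold higher in KO tumors lies within the intervals of Trp63, Tbx2 and Bcl11b. One 1.5-fold lower lies within those of Tbx3, Id4, Sox10 and Bcl11b. In glands of the same age 0 of the 9 were called, beside 0.906% of all genes (0.504% lower and 0.402% higher), with 4514 genes at an unadjusted p under 0.05 and 741 calls by DESeq2. Tbx3 was at -0.75 (95% interval -1.54 to 0.03, edgeR adjusted p = 0.428), where the median of all genes was -0.14. Snai2 was at 0.59 (0.02 to 1.17, adjusted p = 0.390) and Sox9 at 0.35 (0.06 to 0.65, adjusted p = 0.301). The tumor effect differed between genotypes for 0 of the 9, beside 0.14% of all genes (0.0684% lower and 0.0712% higher), with 3784 genes at an unadjusted p under 0.05 and 671 calls by DESeq2. Its largest values were 0.81 for Tbx3 (95% interval -0.23 to 1.86) and 0.81 for Tbx2 (-0.44 to 2.05).

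**Figure D4:**
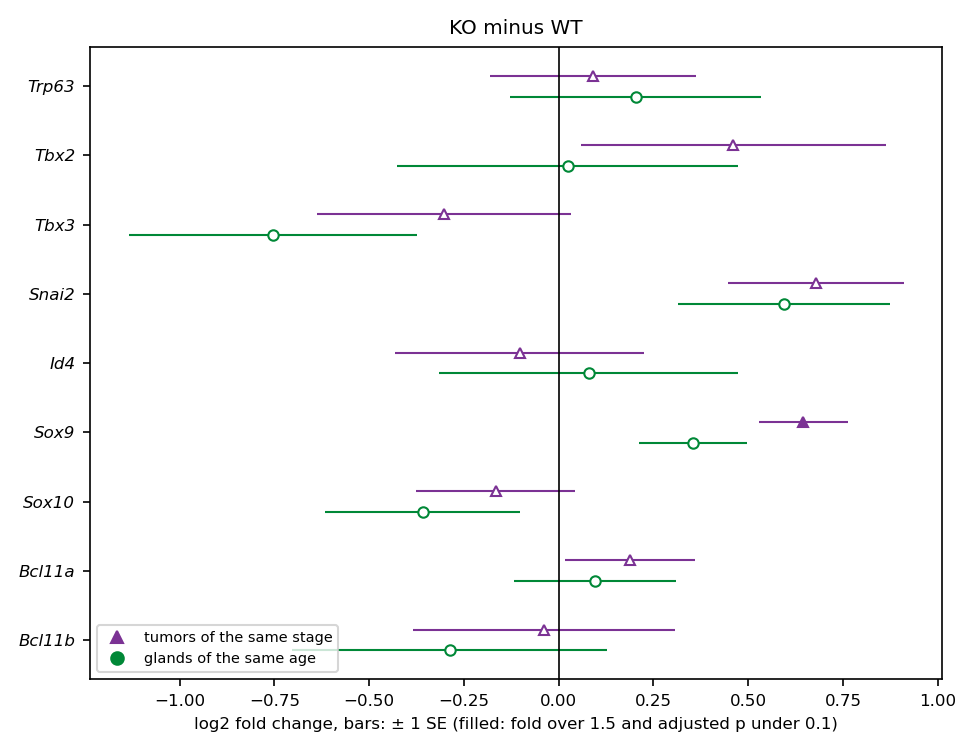
Log2 fold change of KO minus WT (x axis, bars ± 1 SE) for the 9 genes in tumors of the same stage (purple triangles) and in glands of the same age (green circles), filled where called. Sox9 in tumors, at 0.64, is the only filled point.

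Luminal regulators, the counterpart of the 9 genes, did not move as 1 group. Of 12 luminal transcription factors, 5 were lower and 2 higher in WT tumors, and 4 were lower and 2 higher in KO tumors. Pgr, the progesterone receptor, was at -5.47 in WT and -4.25 in KO, and Foxa1, which opens chromatin for hormone receptors, at -3.93 and -3.25. Elf5, the regulator of alveolar progenitors, rose by 3.01 and 2.21. Of 10 structural luminal genes only Krt19 was lower in WT (-2.18) and KO tumors (-1.41), and 0 in WT and 3 in KO tumors were higher. Their summed level was 6477 to 12710.2 CPM in WT tumors and 9631 to 14439 CPM in WT glands.

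Markers of other cells were read for the same comparisons. Of 10 macrophage genes 3 were lower and 1 higher in WT and 0 lower and 3 higher in KO tumors, with Cd14 higher in both (1.83 and 1.45). The macrophage genes summed to 151 to 293 CPM in WT tumors (median 242) and 62.8 to 172 CPM in WT glands (median 88.1). In KO mice the sum was 152 to 418 CPM in tumors (median 218) and 68.0 to 153 CPM in glands (median 100.5), so that the sum was higher in tumors by median while most single genes were not called. Of 8 endothelial genes 5 were lower in WT tumors and 0 were called in KO tumors. Of 8 adipocyte genes 2 were lower and 1 higher in WT and 0 lower and 1 higher in KO tumors, with Pparg higher in both (1.35 and 2.36). Endothelial genes summed to at most 7.68 CPM in WT libraries and 17.4 CPM in KO libraries, and adipocyte genes to at most 14.6 and 31.1 CPM. Their part in the levels of the 9 regulators was not tested.

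**Figure D5:**
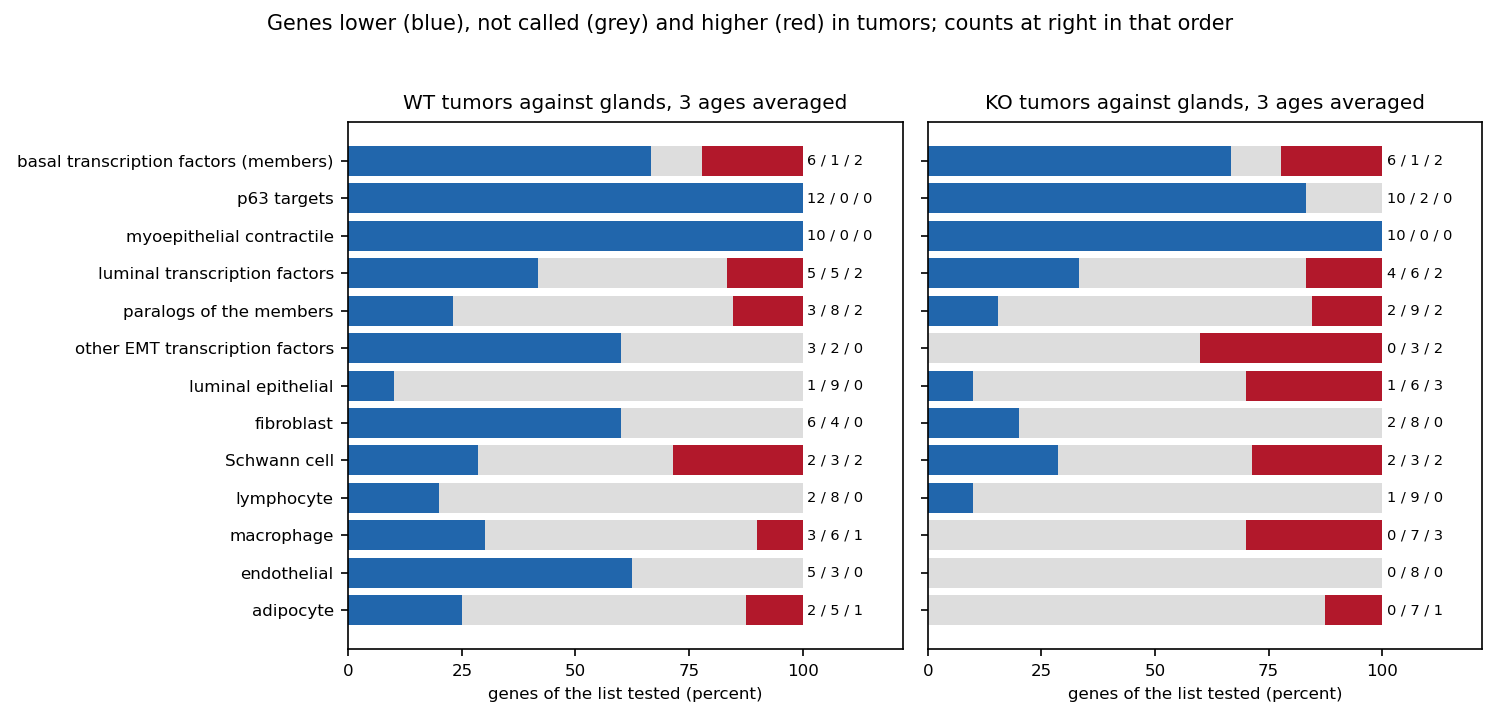
Percent of the tested genes of each list (x axis) that were lower (blue), not called (grey) or higher (red) in tumors averaged over 3 ages, WT at left and KO at right, with the counts beside each bar. The 12 p63 targets and 10 contractile genes are blue throughout in WT mice, whereas the 9 regulators hold 6 blue and 2 red.

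Within the 19 tumors the 9 genes formed no single group. The highest correlations of log2 levels between members were of Trp63 with Bcl11b (r = 0.758), Bcl11a with Bcl11b (0.751), Trp63 with Snai2 (0.685) and Bcl11a with Sox9 (0.649). Trp63 followed the sum of its 12 targets (r = 0.793), whereas Tbx3 followed the contractile genes (0.737) more than the p63 targets (0.341). Bcl11a ran against the luminal structural genes (-0.855), and Bcl11b ran with the fibroblast genes (0.814), whose sum in tumors was at most 152 CPM. Without WT tumor replicate 1 of week 10 these values were -0.815 and 0.726. Bcl11a (0.699), Trp63 (0.653) and Id4 (0.510) ran with the fibroblast genes as well, at 0.596, 0.570 and 0.319 without that tumor. The order of the member pairs changed without it, to Bcl11a with Sox9 (0.722), Trp63 with Bcl11b (0.711), Trp63 with Snai2 (0.665) and Bcl11a with Bcl11b (0.663). These correlations are descriptions over tumors that share genotype, age and rRNA share.

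The genes most like each regulator over all 33 libraries were found among 13324 genes with a mean of at least 1 CPM, by Pearson r of log2(CPM + 0.5). Nearest to Trp63 were Dapk2 (0.938), Eef2k (0.922) and Gprin3 (0.916), and nearest to Tbx3 were C1s1 (0.977), Cldn6 (0.974) and C130021I20Rik (0.968). Snai2 was nearest to Vsnl1 (0.961) and to the p63 targets Krt5 (0.957) and Cdh3 (0.954). Bcl11b was nearest to Trp73, the p63 paralog (0.930), Eya2 (0.918) and Emb (0.917).

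Id4 was nearest to Sparc (0.960), Tenm3 (0.958) and Irx4 (0.956), and Tbx2 to Arhgap20 (0.929), Col4a1 (0.928) and Col14a1 (0.928). Bcl11a was nearest to Trps1 (0.942), Enpp3 (0.937) and Sox5 (0.933), and Sox9 to Zmiz2 (0.905), Sp2 (0.904) and Zfp609 (0.890). Sox10 was nearest to Gm10863 (0.904), Sox6 (0.839) and Mindy1 (0.835). Gm10863 (chr15:79166041-79227524, plus strand) starts 801 bases from the start of Sox10 on the opposite strand. The annotated genes do not overlap, so counting without strand would not by itself give them shared reads. Whether reads were counted by strand is not given in the sources used here, and RNA beyond the annotated starts was not examined.

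Over the 19 tumors alone the nearest gene was Gprin3 for Trp63 (0.950), Sema3d for Tbx2 (0.823), Cldn6 for Tbx3 (0.921), Vsnl1 for Snai2 (0.871) and Fgfr2 for Id4 (0.850). It was Maml1 for Sox9 (0.957), Gm10863 for Sox10 (0.874), Srr for Bcl11a (0.932) and D16Ertd472e for Bcl11b (0.915). Gprin3 and Eef2k (Trp63), Arhgap20 (Tbx2), Cldn6 (Tbx3), Vsnl1 (Snai2), Gm10863 (Sox10) and Eya2 (Bcl11b) were among the nearest 3 both over all libraries and over tumors.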

How the data were processed

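The authors aligned stranded, rRNA-depleted paired-end reads of total RNA with HISAT to Gencode M16 and GRCm38, took out duplicate reads (Picard 1.128) and made gene counts with HTSeq. Whether strand was used in counting is not given in the sources used here. Raw counts were deposited with 1 column per mouse. Of 55598 rows, 111 that name no gene hold 0.0778% of the reads and were left out. The deposited table of normalized signal holds those counts after division by the DESeq2 size factor of each library (R 3.6.2). It served 1 alternative, with limma on log2(signal + 1).

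Counts were tested in edgeR 4.0.16 (R 4.3.3) with glmQLFit and glmQLFTest, TMM scaling, 1 coefficient per genotype, tissue and week over all 33 libraries, and a filter of at least 10 reads summed. Calls use the thresholds of the study, 1.5 for the fold and 0.1 for p adjusted by Benjamini-Hochberg over 36527 genes. The SE was derived from the F statistic and its fold change. DESeq2 1.42.0 and limma 3.58.1 were alternatives. Depth was 28419983 to 130981596 reads, and libraries of a group were compared for duplicates (25 pairs, lowest chi-square per degree of freedom 37.4). On data simulated for WT week 6 (35004 genes), 54 of 100 genes changed by 1 on the log2 scale and 83 of 100 changed by 2 were recovered, with 9 false calls. The changed genes all had a mean over 1 CPM and were few beside the 2139 genes called at that age in the data. These shares need not hold for sparser genes or for the data.

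The 9 members, the gene lists and the tests were chosen with earlier results of these data known. Named genes are the 9 members in every comparison, up to 3 genes of each list with the largest change in WT tumors among those called in both genotypes, and the 3 genes most correlated with each member, beside the genes marked as named after their values were seen. Promoters are from RefSeq (GRCm38.p6), and gene positions from Gencode M21 (GRCm38). Samples were grouped by the genotype, tissue and week of their labels. The WT tumor of 12 weeks has no replicate and entered the normalization but no test.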

Additional observations from a re-analysis of the deposited data

How the results depend on the processing

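Of 44 values of single genes called as reported, 44 kept their direction and call under DESeq2, DESeq2 size factors, no filter on low counts and the replicate block, 42 with the rRNA share as a covariate and 39 with only the groups compared in the fit, and 16 of the 16 averaged values did so with limma on the authors' table of normalized signal. Over fits that left out 1 library, 345 of 393 did. A gland group then holds 1 mouse, which is assumed to vary like the other groups. None of these called values changed sign. Among values not called either way, 138 changed sign, 115 of them when a library was left out, so no direction is read from them. Averaged over ages, 8 of the 9 genes were called under every alternative in WT. In KO it was 7 to 8 when a library was left out, since Trp63 was lost without KO gland replicate 1 of week 12.

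The number of genes called among the 9 depended more on the setting in single comparisons. In KO minus WT tumors it was 1 as reported, 2 with DESeq2 and with no filter on low counts, 0 with the rRNA covariate and 0 with KO libraries of high rRNA share left out, and 0 to 1 when a library was left out. At KO week 8 it was 3 as reported, 6 with DESeq2, 7 with no filter, 5 with only the groups compared and 0 to 3 when a library was left out. At KO week 12 it was 4 as reported, 7 with no filter, 0 with only the groups compared and 2 to 4 when a library was left out. At KO week 10 it was 5 as reported and 1 to 5 when a library was left out. At WT week 10 it was 3 as reported, 5 with no filter and 1 to 4 when a library was left out, and at WT week 6 5 as reported and 2 to 4 when a library was left out. Between last and first stage it was 0 as reported and 1 with DESeq2 and with no filter in WT tumors (0 to 1 when a library was left out), and 0 as reported and 1 with no filter in KO tumors. The cause was not tested.

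The number of all genes called moved by over 1.5 times in KO minus WT tumors (404 as reported, 655 with DESeq2, 632 with no filter, 206 with the rRNA covariate, 29 with KO libraries of high rRNA share left out), in glands of KO minus WT (331, 741, 722, 52 with the rRNA covariate, 67 with only the groups compared), in the difference of the tumor effect (51, 671, 732, 22 with the replicate block and 29 with only the groups compared), at KO week 8 (909, 1695, 1613, and 1416 with only the groups compared), at KO week 12 (2233, and 0 with only the groups compared) and at WT week 10 (2240, and 995 with only the groups compared). In glands of KO minus WT, 35 of the 52 calls with the rRNA covariate were higher (67.3%), beside 147 of 331 as reported. Between last and first stage it was 440 with no filter in WT tumors and 176 in KO tumors. For the change of the tumor effect, 19 genes were called with no filter in WT and 12 in KO mice. Counts of the gene lists were the same with DESeq2 in WT tumors, and in KO tumors became 5 lower and 2 higher of the luminal transcription factors, 1 and 2 of the luminal structural genes, 3 and 2 of the fibroblast genes and 0 and 4 of the macrophage genes.

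The replicate numbers of the labels were not taken to pair the mice. Same-numbered libraries of tumors and glands had correlated deviations over 0.1 in 3 of 12 pairs (r from -0.562 to 0.561). With the replicate block 8 of the 9 genes were called in WT and 8 in KO mice averaged over ages, the same counts as without it, and 5051 and 3566 of all genes were called in place of 5747 and 3872. The limma alternative and the one without KO libraries of high rRNA share were chosen after seeing the data. The averaged KO comparison without libraries of high rRNA share was not run, since no KO gland of week 10 would be left. By Spearman rank, between 1 and 3 of the 3 genes nearest each member over all libraries were the same. Over the tumors alone it was 0 of 3 for Bcl11a, Id4 and Tbx2 and 1 of 3 for each other member. The genes named as nearest over tumors thus depend on the measure. The fewest reads behind a member, 6 for Tbx2 in a tumor, limit its values there.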
